A study of Rattus norvegicus with 24 samples.

Results

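Gfap, S100b, Aqp4 and Slc1a3 are genes whose expression marks astrocytes, and they were followed through every group of a bulk RNA-sequencing study of rat neurospheres (NSps). They were chosen by Ensembl identifier (Gfap ENSRNOG00000002919, S100b ENSRNOG00000001295, Aqp4 ENSRNOG00000016043 and Slc1a3 ENSRNOG00000016163), and all 4 were found among the 16478 genes listed. NSps are free-floating spheres that grew from neural progenitor cells (NPCs) of the brains of Sprague Dawley rat fetuses at embryonic day 15, in the presence of human epidermal and fibroblast growth factors. The 6 groups of 4 samples were control (C), 5 µM Noggin (N), 200 µM ascorbic acid (A), and the same 3 conditions exposed to 1 Gy of X-rays 3 days after seeding (CGy, NGy and AGy). The labels describe Noggin and ascorbic acid as given both before and after the exposure, and nothing in them says whether the samples of a group came from separate cultures, so p-values measure the spread between these samples only. Values are TPM, the length-scaled share of a transcript among all transcripts of a sample, which keep no read depth, and they are given as mean ± SD unless said otherwise.

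Astrocytes arise from NPCs late in brain development, when signals through the JAK-STAT pathway and bone morphogenetic proteins (BMPs) turn on glial genes. Gfap encodes the intermediate filament protein of astrocytes and is raised when they become reactive, and S100b encodes a calcium-binding protein that also occurs in cells of the oligodendrocyte lineage. Aqp4 encodes the water channel of astrocyte endfeet and belongs to mature astrocytes, whereas Slc1a3 encodes the glutamate transporter GLAST, which radial glia and other progenitors carry before astrocytes form. Noggin binds BMPs and keeps them from their receptors, and ascorbic acid is an antioxidant and a cofactor of dioxygenase enzymes.

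The promoter windows of Gfap and S100b are shown, and those of Aqp4 and Slc1a3 are described by their matches. S100b was called in main fits reported below. Aqp4 was called in a fit added after the pairwise values had been seen. Gfap was called only under alternative settings, which include a batch-corrected table, and in none of the main fits. Each window runs from 250 bases before to 50 bases after the RefSeq start site in build GRCr8, and lies on the minus strand at chr10:88361612-88361911 for Gfap and at chr20:12381032-12381331 for S100b. Capitals mark any match, on either strand, to TTCNNNGAA (the STAT-type site), TTGGC (the short site of NFI factors) or CAGAC (a SMAD-type site).
Gfap: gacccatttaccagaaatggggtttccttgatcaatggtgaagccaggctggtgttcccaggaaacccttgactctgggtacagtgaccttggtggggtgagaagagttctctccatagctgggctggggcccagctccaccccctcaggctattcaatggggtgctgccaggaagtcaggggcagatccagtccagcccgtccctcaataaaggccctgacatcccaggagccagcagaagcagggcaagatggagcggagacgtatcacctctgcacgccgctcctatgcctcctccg
S100b: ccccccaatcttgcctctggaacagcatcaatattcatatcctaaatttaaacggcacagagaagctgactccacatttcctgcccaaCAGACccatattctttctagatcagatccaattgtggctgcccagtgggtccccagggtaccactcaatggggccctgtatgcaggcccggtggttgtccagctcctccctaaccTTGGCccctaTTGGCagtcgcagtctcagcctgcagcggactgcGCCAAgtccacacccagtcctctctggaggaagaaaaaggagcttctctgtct
The Gfap window held 0 matches to any of these letters, and sequence outside the windows was not searched. The S100b window held 3 matches to TTGGC, 1 match to CAGAC and 0 to TTCNNNGAA. Of the 33469 promoter windows in the table, 8.87% held TTCNNNGAA, 45.8% held TTGGC and 50.1% held CAGAC, so the short motifs are common and a match is a description only. Each of the 3 overlapping windows of Slc1a3 held the same single TTGGC, and of the 2 windows of Aqp4, 1 held a single CAGAC.

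Control sample MO2 stood apart and was left out of all comparisons unless said otherwise, as it also was in the batch-corrected table that the authors deposited. It had 0.927 TPM of Slc1a3, against 229 to 365 TPM in the other 23 samples, which made Slc1a3 the gene with the largest fall of all 16478 (-7.30 in log2(TPM + 1) against the mean of the other 3 controls). The other markers were not lost in it. MO2 had 31.7 TPM of Gfap, inside the range of the other controls, 0.397 TPM of Aqp4, under that range, and 121 TPM of S100b, above it. Of 1482 genes with over 50 TPM in each of the other 23 samples, 7 including Slc1a3 were under 2 TPM in MO2, and its median gene had 1.32 TPM against 2.57 to 3.20 TPM elsewhere. With MO2 included, the difference of CGy against C was 1.40 for Gfap, 0.97 for S100b, 0.89 for Aqp4 and 1.96 for Slc1a3 (log2(TPM + 1)), in place of 1.56, 1.21, 0.75 and 0.14 without it, and none passed the test in either case. No 2 of the 24 samples had identical values.

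**Figure D1:**
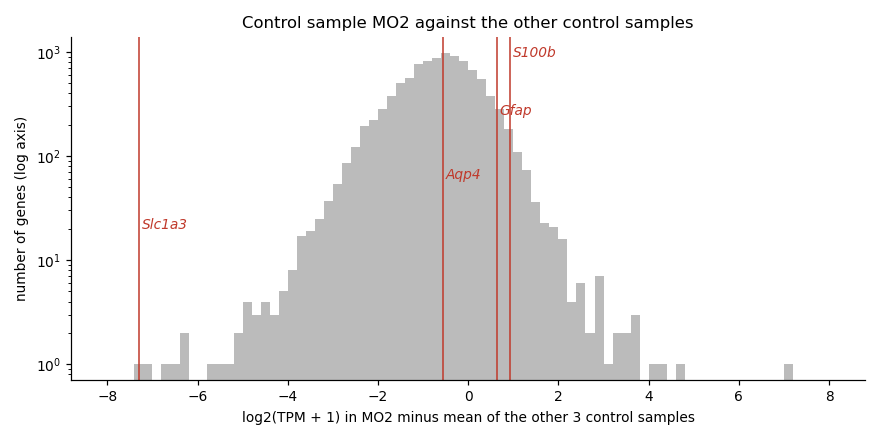
Number of genes (log axis) by the difference in log2(TPM + 1) between control sample MO2 and the mean of the other 3 control samples, for the 10134 genes whose group mean reached 1 TPM somewhere; red lines mark the 4 markers. Slc1a3 lies at -7.30, at the far left of the distribution, while Gfap (0.64) and S100b (0.94) lie to the right of the median gene (-0.59).

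The 4 markers were expressed at very different levels. Over the 23 samples, Slc1a3 averaged 297 TPM, above 98.4% of the listed genes, S100b 99.7 TPM (above 94.4%), Gfap 33.1 TPM (above 82.1%) and Aqp4 1.49 TPM (above 44.6%). Because TPM is scaled by length, these are levels that can be set beside each other. Slc1a3 was also the steadiest, with its highest sample 1.59 times its lowest, and that ratio was 4.88 for S100b, 15.3 for Gfap and 23.3 for Aqp4. The early glial transporter was thus high in each of these 23 samples, and the water channel of mature astrocytes was near the lower limit of 1 TPM used for testing. In bulk samples, more cells of a type and more RNA per cell cannot be told apart.

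**Figure D2:**
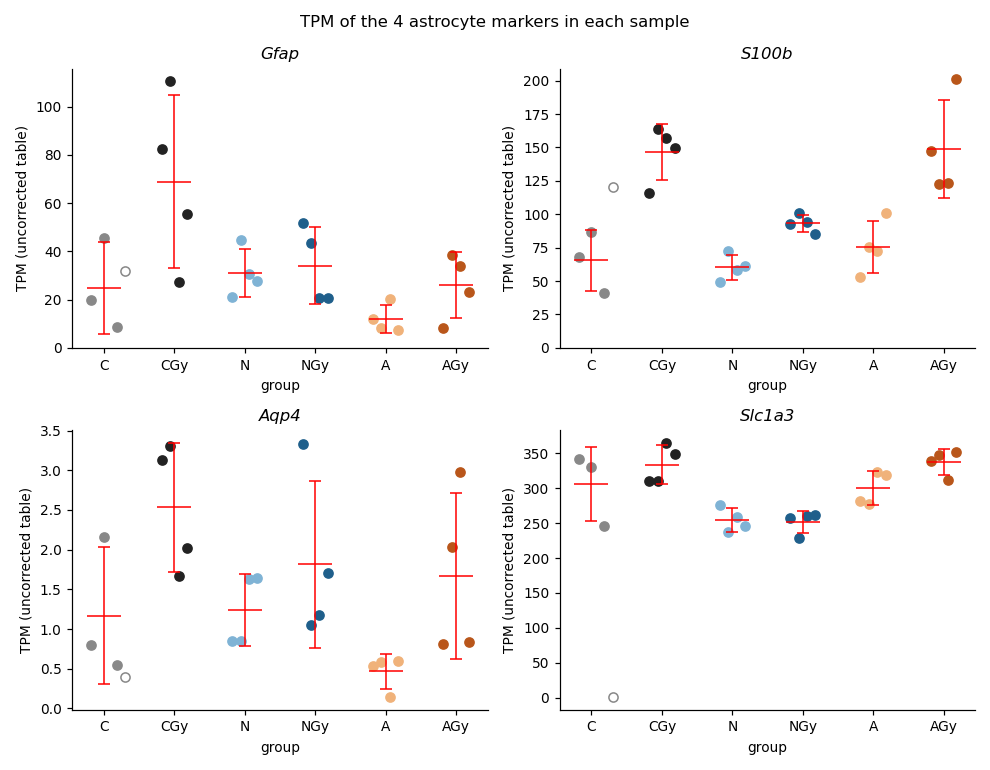
TPM of each marker in each sample by group (points), with the mean (red dash) and SD (red bars) of the samples used; the open circle is MO2, which is in neither. Among the samples used, S100b is higher in each irradiated group than in its own control group without overlap, and Slc1a3 is low in N and NGy. The S100b value of MO2 (121 TPM) lies above the lowest CGy sample (116 TPM). Gfap is widely spread within groups and Aqp4 stays below 3.5 TPM.

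S100b levels were higher after 1 Gy in each background, without overlap between groups among the samples used. In C the samples had 41.2, 68.3 and 86.6 TPM, and in CGy 116, 150, 157 and 164 TPM. In N they had 49.4, 57.9, 61.2 and 72.4 TPM, and in NGy 85.1, 92.5, 94.0 and 101 TPM. In A they had 52.7, 72.3, 75.8 and 101 TPM, and in AGy 123, 124, 147 and 201 TPM. In none of the 3 backgrounds did an irradiated sample overlap with the matching unirradiated samples used. Of the 12 irradiated samples, 9 lay above all 11 unirradiated ones used. Control sample MO2, which was left out, had 121 TPM, above the lowest CGy sample (116 TPM). With MO2 included, C and CGy overlap and the count of 9 is lower. Of all genes tested, 15% did not overlap in CGy against C, 23.3% in NGy against N and 8.1% in AGy against A. No such share was computed for the count of 9.

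Between backgrounds, the fitted S100b difference ran from 0.63 to 1.21, and it was not shown to differ by the interaction tests below. It was 1.21 ± 0.25 (log2(TPM + 1), ± SE; 2.31-fold) for CGy against C, with limma and Benjamini-Hochberg adjusted p = 0.314. The same adjustment left 2 of 9782 genes called in that comparison (0.0204%), where a call needs an adjusted p of at most 0.05 and a change of at least 1.5-fold, and 0 of the 4 markers was among them. In NGy against N, S100b rose by 0.63 ± 0.11 (1.55-fold, adjusted p = 0.0156), and it was the 1 marker of 4 called there against a background of 2.91%. This rise lies close to the fold limit and fell to 0.54 without N sample MO5, below 1.5-fold, at an adjusted p of 0.0242. The call also ended under quantile normalization (0.58) and rescaled totals (0.56), both below 1.5-fold, and with all 6 groups in one fit (adjusted p = 0.0586). In AGy against A the difference was 0.98 ± 0.22 (1.97-fold, adjusted p = 0.171). No gene was called in that comparison with limma (0%), although 1256 of 9859 had an unadjusted p under 0.05, and 102 genes were called in the batch-corrected table.

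Gfap was highest in CGy but varied severalfold within groups. The C samples had 8.49, 20.0 and 45.6 TPM and the CGy samples 27.3, 55.3, 82.4 and 111 TPM. One CGy sample, MO15 with 27.3 TPM, was below the highest C sample, so the groups overlapped. The difference was 1.56 ± 0.63 (2.95-fold, 95% interval 1.06 to 8.19) with adjusted p = 0.331. Without control sample MO4, which had the lowest Gfap of C, it was 0.99, and without MO3, which had the highest, it was 2.13.

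Under Noggin, the Gfap ranges without and with radiation overlapped widely. The N samples had 21.0, 27.6, 30.7 and 44.6 TPM, and the NGy samples 20.6, 20.6, 43.4 and 51.8 TPM. The difference was 0.07 ± 0.35 (fold 1.05, 95% interval 0.600 to 1.82, adjusted p = 0.917), and its sign changed when the TPM were rescaled to one total. The A group had the lowest mean Gfap. The A samples had 7.25, 8.22, 11.8 and 20.3 TPM, and AGy 8.03, 23.2, 33.9 and 38.7 TPM. AGy sample MO21 lay among the A samples, the other 3 AGy samples lay above all of them, and the difference was 0.97 ± 0.48 (adjusted p = 0.445).

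Aqp4 was low in every group. It had 0.551, 0.794 and 2.16 TPM in C and 1.67, 2.03, 3.13 and 3.30 TPM in CGy, a difference of 0.75 ± 0.28 on the log2(TPM + 1) scale, which understates changes of genes this low (adjusted p = 0.331). In N it ranged from 0.844 to 1.64 TPM and in NGy from 1.05 to 3.33 TPM, with overlap, and the difference was 0.29 ± 0.25 (adjusted p = 0.451). In A it had 0.143, 0.540, 0.586 and 0.593 TPM and in AGy 0.810, 0.839, 2.04 and 2.98 TPM. Those groups did not overlap, as held for 8.1% of all genes tested, and the difference was 0.79 ± 0.26 with adjusted p = 0.283. Aqp4 entered the comparisons of A through the other group, since its mean in A (0.465 TPM) was below the 1 TPM that a gene needed in either group.

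Slc1a3 differed little with radiation. Its means were 306 ± 52.7 TPM in C and 334 ± 27.4 in CGy, 255 ± 16.8 in N and 252 ± 15.6 in NGy, and 300 ± 23.9 in A and 338 ± 18.02 in AGy (n = 3 in C and 4 elsewhere). The radiation differences were 0.14 ± 0.14, -0.02 ± 0.07 and 0.17 ± 0.09, and none passed the test (adjusted p = 0.610, 0.902 and 0.445). The 95% interval of the fold was 0.878 to 1.38 for CGy against C, 0.881 to 1.11 for NGy against N and 0.984 to 1.29 for AGy against A.

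**Figure D3:**
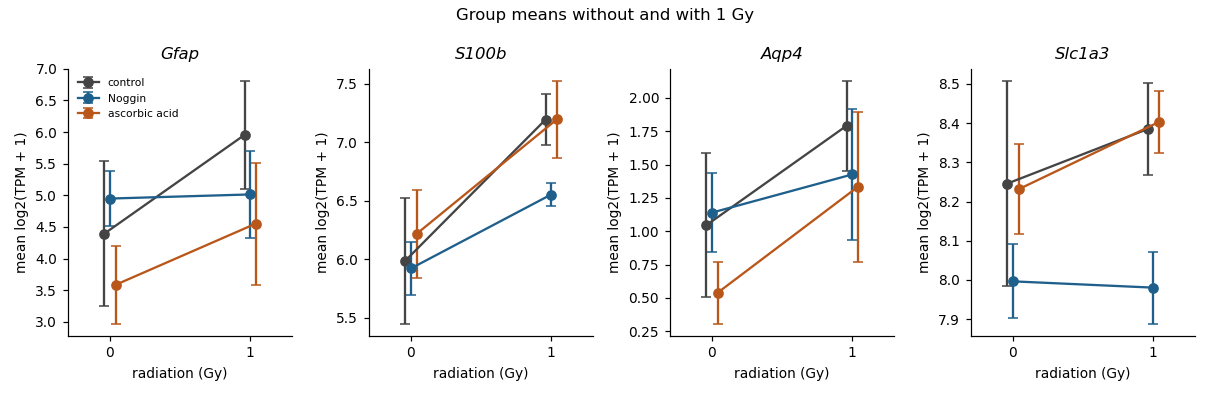
Mean log2(TPM + 1) of each marker at 0 and 1 Gy of radiation for control (grey), Noggin (blue) and ascorbic acid (orange) NSps, with the SD of the samples as bars. The Gfap line is nearly flat under Noggin (0.07 against 1.56 in control NSps), the S100b lines all climb, and the Slc1a3 line lies lowest under Noggin; each panel has its own vertical scale that does not start at 0.

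Whether a pretreatment changed the radiation difference was tested as an interaction, called at an adjusted p up to 0.05 whatever the fold. Under Noggin the radiation difference was smaller, by a fitted interaction of -1.496 ± 0.75 for Gfap (adjusted p = 0.325) and -0.57 ± 0.28 for S100b (adjusted p = 0.318), and neither passed. For Aqp4 and Slc1a3 the interaction values with Noggin were -0.46 ± 0.40 and -0.15 ± 0.15. With ascorbic acid they were -0.59 ± 0.84 for Gfap, -0.23 ± 0.35 for S100b, 0.05 ± 0.41 for Aqp4 and 0.03 ± 0.16 for Slc1a3. Over all genes, 1 passed with Noggin (0.01%) and 1 with ascorbic acid (0.00996%), and 0 of the 4 markers passed in either. S100b was called after radiation under Noggin and not in control NSps in the pairwise fits, and with all 6 groups in one fit the calls turned around (adjusted p = 0.0307 for CGy against C, 0.0440 for AGy against A and 0.0586 for NGy against N), so its radiation differences were not shown to differ between backgrounds.

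Within irradiated NSps, S100b was lower with Noggin. It fell by 0.64 ± 0.11 in NGy against CGy (0.642-fold, adjusted p = 0.0492), with all 4 NGy samples below all 4 CGy samples, and it was the 1 marker of 4 called (background 0.392%). That call sits at the threshold: with 1 sample left out it held only without CGy sample MO13, and leaving out any of MO14B, MO15, MO16, MO17, MO18, MO19 or MO20 ended it, with adjusted p from 0.0234 to 0.137 over the 8 fits. Slc1a3 had 229, 258, 260 and 261 TPM in NGy and 311, 311, 350 and 365 TPM in CGy. These groups did not overlap either, and the difference was -0.40 ± 0.08 (0.756-fold, adjusted p = 0.0620). Of all genes tested, 12.1% did not overlap between NGy and CGy. Gfap differed by -0.94 ± 0.47 (adjusted p = 0.349) and Aqp4 by -0.37 ± 0.26 (adjusted p = 0.518).

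Ascorbic acid within irradiated NSps went with a lower Gfap mean, and the differences of S100b and Slc1a3 were near 0. For AGy against CGy the Gfap difference was -1.40 ± 0.55 (0.378-fold, 95% interval 0.159 to 0.897, adjusted p = 0.118), and 2 AGy samples exceeded the lowest CGy sample. S100b differed by 0.00 ± 0.18, with a 95% interval of the fold from 0.756 to 1.33, and Slc1a3 by 0.02 ± 0.08, with an interval from 0.887 to 1.16. Aqp4 differed by -0.46 ± 0.28 (adjusted p = 0.292). In this comparison 6.42% of all genes were called and 0 of the 4 markers. In the titles of the samples, the 8 ascorbic acid samples and 1 control sample carry lower numbers than the other 15 samples. Whatever that numbering stands for cannot be told apart from ascorbic acid in comparisons with CGy. At most 1 control used shares the low numbers, as titles are not tied to columns. Comparisons of A or AGy with C therefore carry nearly the same limit.

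Without radiation, neither pretreatment moved a marker past the test. For N against C the differences were 0.55 ± 0.51 for Gfap, -0.07 ± 0.25 for S100b, 0.09 ± 0.27 for Aqp4 and -0.25 ± 0.13 for Slc1a3, with adjusted p from 0.462 to 0.911 and a background of 0.0102%. For A against C they were -0.81 ± 0.55 for Gfap, 0.23 ± 0.29 for S100b, -0.51 ± 0.25 for Aqp4 and -0.01 ± 0.14 for Slc1a3, with adjusted p from 0.479 to 0.982 and a background of 0.0203%. The N samples of Slc1a3 (238, 246, 258 and 277 TPM) surrounded the lowest C sample (245 TPM) and lay below the other C samples (331 and 342 TPM). Against C, the S100b difference of the irradiated and pretreated groups was 0.56 ± 0.23 in NGy (adjusted p = 0.201, background 0.665%) and 1.21 ± 0.28 in AGy (adjusted p = 0.172, background 0%, with 1304 genes under an unadjusted p of 0.05 and 315 called in the corrected table). Gfap differed from C by 0.62 ± 0.58 in NGy and 0.16 ± 0.65 in AGy. These comparisons share the C samples with CGy against C.

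**Figure D4:**
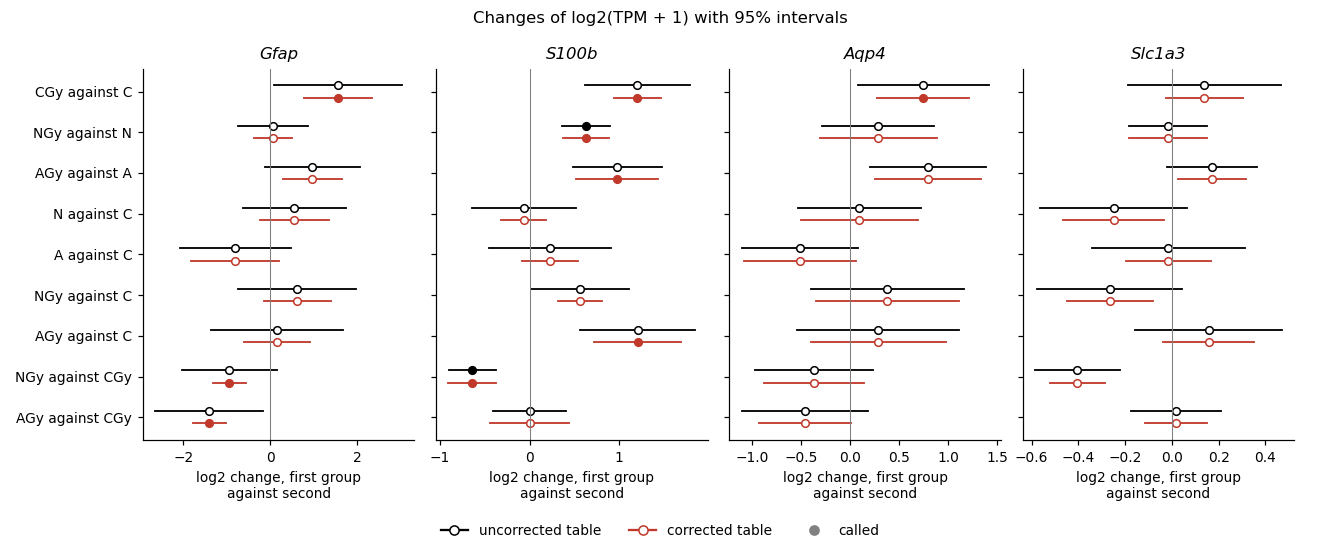
Difference in log2(TPM + 1) (horizontal axis, first group against second) with 95% intervals for the 4 markers in 9 comparisons, from the uncorrected table (black) and the batch-corrected table (red); filled points were called. The uncorrected table has 2 filled points, both of S100b (NGy against N and NGy against CGy), and the points of both tables have the same position because the correction kept the group means.

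Each treatment was also averaged over backgrounds. This model, with all 6 groups in one limma fit, was added after the pairwise values had been seen. Over the 3 pairs of groups, radiation raised S100b by 0.94 ± 0.12 (1.92-fold, 95% interval 1.60 to 2.30, adjusted p = 0.00013) and Aqp4 by 0.61 ± 0.17 (1.53-fold, adjusted p = 0.0156), so 2 of the 4 markers were called against a background of 2.17%. The S100b rise was called with any 1 of the 23 samples left out, whereas the Aqp4 rise dropped below 1.5-fold without any of MO1, MO4, MO5, MO6, MO11, MO13, MO14B, MO17, MO22 or MO23 (lowest 0.53), with adjusted p at most 0.0369. Fold values are of TPM + 1, which understates changes of a gene as low as Aqp4. With 0.1 added in place of 1, its difference of CGy against C was 1.21 rather than 0.75. The radiation difference of Gfap was 0.86 ± 0.31 (1.82-fold, adjusted p = 0.0543) and that of Slc1a3 0.10 ± 0.06 (1.07-fold, adjusted p = 0.216).

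For the pretreatments, the averages were taken over 2 pairs of groups. With Noggin, Slc1a3 differed by -0.33 ± 0.07 (0.797-fold, adjusted p = 0.0172), which passed the adjusted p but not the fold limit, and 0 of the 4 markers was called (background 0.683%). The Noggin averages were -0.35 ± 0.15 for S100b (adjusted p = 0.261), -0.19 ± 0.39 for Gfap and -0.14 ± 0.21 for Aqp4. With ascorbic acid, Gfap differed by -1.11 ± 0.39 (0.464-fold, adjusted p = 0.0502) and Aqp4 by -0.48 ± 0.21 (0.715-fold in TPM + 1, adjusted p = 0.105), and again 0 of the 4 was called (background 4.54%). S100b (0.12 ± 0.15) and Slc1a3 (0.00 ± 0.07) were near 0 on average with ascorbic acid. The limit from the title numbers given above also holds for the ascorbic acid averages.

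The batch-corrected table gave the same differences and more calls, with a smaller SE for 33 of the 36 pairwise values. The other 3 were Aqp4 in NGy against N, and S100b in the comparisons of CGy with NGy and with AGy. It keeps each group mean of log2(TPM + 1) and removes shared variation between samples of a group, using the group labels, so its p-values are too small. It took away 69.5% of the within-group sum of squares of Gfap, 51.5% of that of Slc1a3, 43.3% of that of S100b and 19.9% of that of Aqp4, against a median of 38.8% over 10134 genes. The Gfap share was larger than that of 82.0% of these genes. In CGy the Gfap values went from 27.3, 55.3, 82.4 and 111 TPM to 49.99, 79.1, 61.8 and 56.8 TPM in the same sample order, so that the sample with the highest Gfap as sequenced (MO14B) became the next to lowest. In C, MO4 went from 8.49 to 21.2 TPM and MO1 from 20.0 to 11.4 TPM, which swapped their order.

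**Figure D5:**
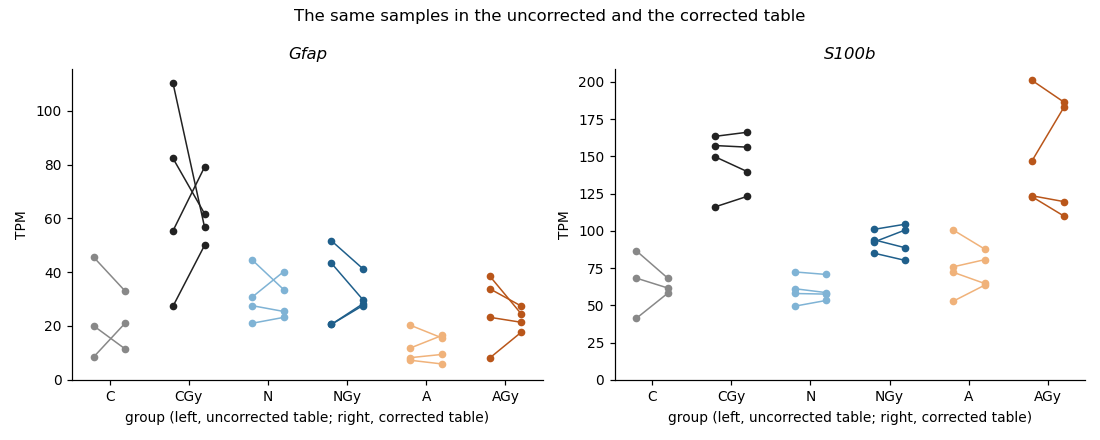
TPM of Gfap and S100b in each of the 23 samples in the uncorrected table (left end of each line) and the batch-corrected table (right end), by group. The lines of Gfap cross and draw together, for example in CGy, where the SD went from 35.7 to 12.4 TPM, and in AGy (13.6 to 4.19 TPM); in AGy the S100b values did not draw together (SD 36.7 and 40.6 TPM).

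In the corrected table, 3 of the 4 markers were called in CGy against C (Gfap adjusted p = 0.0132, S100b 0.000745 and Aqp4 0.0290; background 6.73%). S100b alone was called in NGy against N (adjusted p = 0.00504, background 4.72%), in AGy against A (0.0459, background 1.04%) and in AGy against C (0.0181, background 3.21%). In NGy against CGy, Gfap (0.0110) and S100b (0.0113) were called (background 1.42%), and in AGy against CGy Gfap alone (0.000582, background 9.07%). Slc1a3 passed the adjusted p in NGy against CGy (0.00314) and in NGy against C (0.0338), as did S100b in NGy against C (0.00602), each with a change below 1.5-fold. None of the 4 was called in N against C, A against C or NGy against C, where the backgrounds were 3.88%, 2.44% and 8.51%. The interaction with Noggin passed for Gfap (0.0161) and S100b (0.0240), where 24.1% of all genes passed, and 0 of the 4 passed with ascorbic acid (11.2% of all genes). So S100b after radiation under Noggin and S100b between NGy and CGy were called in both tables, and in the pairwise comparisons as set up here, Gfap was called in the corrected table alone.

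The order of the groups differed from marker to marker. By mean TPM, Gfap ran CGy (68.9 ± 35.7), NGy (34.1 ± 16.0), N (31.0 ± 9.96), AGy (26.0 ± 13.6), C (24.7 ± 19.0) and A (11.9 ± 5.93), and every step between neighbours was smaller than the larger SD of the pair. S100b ran AGy (149 ± 36.7), CGy (147 ± 21.1), NGy (93.1 ± 6.54), A (75.3 ± 19.7), C (65.4 ± 22.8) and N (60.2 ± 9.52). Only the step from CGy to NGy exceeded the SDs and was free of overlap, as were 12.1% of all genes tested between these groups. Aqp4 ran CGy (2.53 ± 0.809), NGy (1.81 ± 1.05), AGy (1.67 ± 1.05), N (1.24 ± 0.454), C (1.17 ± 0.867) and A (0.465 ± 0.216), with each step within the larger SD. Slc1a3 ran AGy, CGy, C, A, N and NGy, and the step from A (300 ± 23.9) to N (255 ± 16.8) was the single one beyond the SDs and free of overlap. The share of all genes without overlap was not computed for A and N.

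Likeness of pattern was measured as Pearson's r over the 6 group means of log2(TPM + 1), as a description with no test, since 6 points that share libraries and radiation pairs give high values for many genes. Gfap and Aqp4 were most alike (r = 0.95), and Aqp4 ranked 70 among the 10133 genes compared with Gfap. S100b had r = 0.68 with Aqp4, 0.65 with Slc1a3 and 0.49 with Gfap. Slc1a3 had r = 0.04 with Gfap and 0.18 with Aqp4. The 3 genes closest to each marker had r from 0.990 to 0.992 for Gfap, 0.976 to 0.988 for S100b, 0.981 to 0.993 for Aqp4 and 0.969 to 0.989 for Slc1a3. Of the sum of squares over the 23 samples, differences between groups held 79.1% for S100b, 69.8% for Slc1a3, 53.7% for Aqp4 and 53.2% for Gfap, against a median of 46.6% over expressed genes.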

How the data were processed

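Directional polyA libraries from 24 NSp samples were sequenced, and the authors deposited TPM from kallisto for all samples (STAR 2.6.1 is also named in the submitters' notes). They also deposited a table of 23 samples without MO2, corrected for batch. Its values (unit: other, 0.5 times the corrected TPM + 1) were doubled, 1 was subtracted and negative results were set to 0. The genome build given by the study is Rn7. The columns carry the study's own sample names, and their groups come from the study's figures and the rule that chose the genes, since the sample labels do not name the columns. No per-sample column was left without a group.

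The main values were log2(TPM + 1) of the uncorrected table without MO2. The study's own comparisons used the corrected table, which is given beside them. For pairs of groups, linear models were fitted in limma 3.58.1 (R 4.3.3; lmFit, eBayes) over all genes whose mean reached 1 TPM in either group of the pair. P-values were adjusted by Benjamini-Hochberg over all genes tested, and a gene was called at an adjusted p of at most 0.05 and a change of at least 1.5-fold in TPM + 1. The fitting code was tested on simulated data with noise drawn independently for each gene and sample. Those data lack the variation that samples share, so that test covers the code and not the p-values given here. TPM keep no depth, so counting error is unknown and the spread between samples is the sole measure of precision.

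All 4 markers were named in each comparison, and the members and lists were chosen with earlier results of these data known. Their symbols come from the rule that chose them. The tables hold Ensembl identifiers, 0 of 16478 of which could be paired with a symbol in the reference list used, so further astrocyte genes, markers of other cell types and the genes of most like pattern were not analysed here by name. Promoter windows are from RefSeq (GRCr8), with all 4 genes matched by symbol. Alternatives were the corrected table, MO2 included, a pseudocount of 0.1, no filter, quantile normalization, rescaled totals, all 6 groups in one fit, a variance trend, an adjusted p alone and each sample left out. The effects averaged over backgrounds, and the interactions in a fit of 6 groups, were chosen after seeing the data.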

Additional observations from a re-analysis of the deposited data

Results flagged for a closer look

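For each marker in each group of 4 samples, the gap between the most extreme sample and its nearest neighbour was compared with the whole range. Dixon's criterion was used on the log2(TPM + 1) scale, with MO2 included. Of 24 such sets of a gene in a group, 3 stood out, where chance gives about 1 in 20 for a single set. The sets share samples and MO2 was already known to stand apart, so the count was not tested against chance. Slc1a3 in control sample MO2 was 0.927 TPM, against 245 to 342 TPM in the other controls. Slc1a3 in NGy sample MO18 was 229 TPM, against 258 to 261 TPM in the other NGy samples, and without it the difference of NGy against N was 0.03 in place of -0.02. Aqp4 in A sample MO11 was 0.143 TPM, against 0.540 to 0.593 TPM in the other A samples.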

How the results depend on the processing

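Of 307 pairwise values under other settings, 281 kept their direction and side of the threshold, as did 57 of 64 interactions and 83 of 96 averaged effects. Direction could not change under the corrected table, no filter, a variance trend, an adjusted p alone or all 6 groups in one fit, which keep each difference. Most values were also not called in the main fits, so these counts are a description only. Under the corrected table the calls gained were, for CGy against C, Gfap 1.56, S100b 1.21 and Aqp4 0.75; S100b 0.98 (AGy against A) and 1.21 (AGy against C); Gfap -0.94 (NGy against CGy) and -1.40 (AGy against CGy); interactions with Noggin of -1.50 (Gfap) and -0.57 (S100b); and averaged Gfap effects of 0.86 (radiation) and -1.11 (ascorbic acid). With all 6 groups in one fit S100b was called at 1.21 in CGy against C, 0.98 in AGy against A and 1.21 in AGy against C, and was no longer called at 0.63 in NGy against N and -0.64 in NGy against CGy. The NGy against N call also ended at 0.58 (quantile normalization) and 0.56 (rescaled totals), and that of NGy against CGy at -0.64 with a pseudocount of 0.1 and at -0.64 with no filter (adjusted p from 0.0113 to 0.169 over its alternatives other than leaving out samples). The Gfap radiation average was called at 0.86 with a variance trend, the Aqp4 one was not at 0.58 with rescaled totals, and the Gfap ascorbic acid average was called at -1.19 (MO2 included), -1.10 (quantile), -1.12 (rescaled) and -1.11 (variance trend). On adjusted p alone the Noggin average of Slc1a3 passed at -0.33. Where a cause is not evident from the setting itself, it was not tested.

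With MO2 included, signs turned for Slc1a3 in N against C (1.58), A against C (1.81), NGy against C (1.56), its interaction with ascorbic acid (-1.79) and its Noggin average (0.59), and for values near 0: S100b in A against C (-0.0052), Gfap in AGy against C (-0.0013), the ascorbic acid interactions of S100b (0.0068) and Aqp4 (-0.092), and the ascorbic acid average of S100b (-0.0018). Other sign changes near 0 were Gfap in NGy against N (-0.0027, rescaled), Aqp4 in N against C (-0.0041, quantile), S100b in AGy against CGy (-0.032, rescaled), and, under quantile normalization and rescaled totals, Slc1a3 in AGy against CGy (-0.069 and -0.016), its interaction with ascorbic acid (-0.023 and -0.015) and its ascorbic acid average (-0.058 and -0.0080).

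When samples were dropped one at a time, the values whose sign or call changed ranged as follows. For Gfap they ran from -0.17 to 0.26 in NGy against N, -0.019 to 1.13 in N against C and -0.42 to 0.73 in AGy against C, with averages of 0.67 to 1.06 for radiation, -0.48 to 0.093 for Noggin and -1.39 to -0.82 for ascorbic acid. For S100b they ran from 0.54 to 0.72 in NGy against N, -0.36 to 0.17 in N against C, -0.066 to 0.46 in A against C, -0.75 to -0.58 in NGy against CGy and -0.15 to 0.083 in AGy against CGy, with -0.46 to 0.067 for the ascorbic acid interaction and -0.032 to 0.23 for the ascorbic acid average. For Aqp4 they ran from -0.11 to 0.40 in N against C, with -0.26 to 0.25 for the ascorbic acid interaction and averages of 0.53 to 0.71 for radiation, -0.25 to 0.018 for Noggin and -0.59 to -0.33 for ascorbic acid. For Slc1a3 they ran from -0.012 to 0.23 in CGy against C, -0.048 to 0.030 in NGy against N, -0.17 to 0.073 in A against C and -0.016 to 0.061 in AGy against CGy, with -0.055 to 0.18 for the ascorbic acid interaction and -0.074 to 0.045 for the ascorbic acid average. The averages of Gfap gained a call without C sample MO3, A sample MO11, CGy sample MO15 or AGy sample MO21 for radiation (adjusted p down to 0.0179), and without C sample MO4, A sample MO11, CGy sample MO15 or AGy samples MO22 or MO23 for ascorbic acid (down to 0.0111). The Aqp4 average for ascorbic acid gained one without MO4 or MO23.

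Counts of genes called in all moved with these settings: from 2 to between 0 and 657 in CGy against C, 284 to 154 and 1381 in NGy against N, 0 to at most 102 in AGy against A, 1 to at most 379 in N against C, 2 to at most 240 in A against C, 65 to 2 and 829 in NGy against C, 0 to at most 315 in AGy against C, 38 to 26 and 137 in NGy against CGy, 632 to 278 and 1217 in AGy against CGy, 1 to at most 2392 and 1 to at most 1126 for the interactions with Noggin and ascorbic acid, and, for the averages, 220 to 149 and 2190 (radiation), 68 to 52 and 191 (Noggin) and 456 to 394 and 2011 (ascorbic acid). With 1 sample left out, counts ran from 149 (without MO19) to 341 in NGy against N, 0 (MO19) to 175 (MO3) in NGy against C, 17 (MO15) to 53 in NGy against CGy, 268 (MO16) to 636 in AGy against CGy and at most 6 in each of the other pairwise comparisons and the interactions, and for the averages from 143 (MO4) to 326 (radiation), 47 to 119 (MO3; Noggin) and 237 (MO3) to 756 (MO4; ascorbic acid). Counts also moved by over 1.5 times without MO6, MO8 or MO20 in NGy against N (150 to 176), MO1, MO17, MO18 or MO20 in NGy against C (1 to 8), MO13, MO16, MO18, MO19 or MO20 in NGy against CGy (19 to 25) and MO15 or MO21 in AGy against CGy (301 and 411). Aqp4 in A against C has no value with MO2 included or without MO3, because its means were then below the filter. No paired analysis was possible because the columns carry no replicate number shared between groups.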
